A study of Homo sapiens with 32 samples.

Results

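The 8 arrays compared here come from H460a cells that received vehicle alone, 4 lysed after 6 h and 4 after 24 h, out of 32 arrays in the series. They were chosen by their titles, and all 4 replicates of each of these 2 groups were used. The series measured RNA in human lung cancer cells of the lines H460a and A549, which received RO4929097 at 2 µM or its vehicle. RO4929097 is an inhibitor of the gamma-secretase complex that releases the active part of Notch receptors, and each of the 8 groups had 4 replicates. In both groups cells had been plated at 35% confluency, left overnight, given the inhibitor's vehicle and kept at 37 °C, and the labels name no genetic change to the cells. The groups therefore differ in hours of culture, and cell number, density and use of the medium, for which the labels give no values, cannot be told apart from time. H460 is an established line from a large cell lung carcinoma with known mutations in STK11 and KEAP1, and the labels spell the line H460a.

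As background, cells in a closed dish consume glucose and oxygen, acidify their medium and come into contact with their neighbours as hours pass. Cells sense this through several transcription factors. MondoA reports sugar phosphates, hypoxia-inducible factors report oxygen, E2F factors switch on the genes of DNA replication, MYC and RNA polymerase I drive the building of ribosomes, and heat shock factor 1 reports unfolded cytosolic proteins. Medium and handling at plating can also start short-lived responses that fade over the following hours.

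Levels below are log2 of the deposited array intensity, differences are the mean at 24 h minus the mean at 6 h on that scale, and errors of levels are SD over 4 arrays. A gene is called where limma's adjusted p (Benjamini-Hochberg over 19775 genes) is under 0.05. The labels do not say that replicates were separate cultures, so p-values measure only the spread between arrays, which may be technical. The number of arrays limits the precision, and the median standard error of a difference was 0.09. Mean intensity was alike in the 8 arrays, from 592.7 to 601.8. One of them, array 3 at 6 h, stood apart. It correlated with the other 6 h arrays at 0.991 to 0.992, against 0.997 to 0.998 among those 3, and it was the array farthest from the other 6 h arrays in 54.9% of genes. Its ACTB probe set at the 3′ end exceeded that at the 5′ end by 2.19 log2 units. In the remaining 7 arrays this excess ran from 0.218 to 0.415. Counts and called differences that it moved by 1.5 times or more, and calls that it ended or added for a named gene, are given with and without it. Medians and differences that did not pass are given with all 8 arrays unless stated, and some of these moved by as much. Where a gene has several probe sets the brightest stands for it, and genes whose call changed with the mean of all probe sets or with the most variable one are named with that value.

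Keratins of simple epithelia were high in all 8 arrays, whereas the junction genes EPCAM and CDH1 were not. KRT18 lay at 13.96 ± 0.07 at 6 h and 13.73 ± 0.03 at 24 h, and KRT8 at 12.87 ± 0.40 and 12.87 ± 0.17 (SD, n = 4), while VIM, a filament protein of mesenchymal cells, lay at 14.71 ± 0.05 and 14.78 ± 0.02. EPCAM (4.75 ± 0.20 and 4.85 ± 0.11) and CDH1 (4.80 ± 0.15 and 4.72 ± 0.10) were near the lowest levels on these arrays at both times. So were the leukocyte gene PTPRC (5.24 ± 0.06 and 5.17 ± 0.15) and the endothelial gene CDH5 (4.89 ± 0.14 and 4.87 ± 0.16). Other measured adhesion and junction genes ranged at 6 h from 5.68 (DSP) to 12.55 (CTNNA1). Of 14 leukocyte and endothelial markers 6 had a mean level under 6, while CD14 lay at 8.09 ± 0.18 and KDR at 7.62 ± 0.18 at 6 h.

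A large share of the transcriptome differed between the times, by modest amounts. Of 19775 genes tested, 6004 (30.4%) were called, 2980 (15.1%) higher and 3024 (15.3%) lower at 24 h. The median size of a called difference was 0.39, and 164 called genes rose and 66 fell by 1 or more on the log2 scale, which is 2-fold. In 5611 genes (28.4%) the arrays of the 2 times did not overlap, with 2738 (13.8%) higher and 2873 (14.5%) lower. Without array 3 at 6 h 5891 genes were called, 5226 of them called in the same direction with it, and 0 genes were called in opposite directions. Groups of genes did not share these changes evenly. Most of the measured genes of DNA replication, mitosis, ribosome building, tRNA charging and heat shock fell, and most of those of glucose sensing, hypoxia and the insulin-like growth factor pathway rose, as the plot of gene lists shows.

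**Figure D1:**
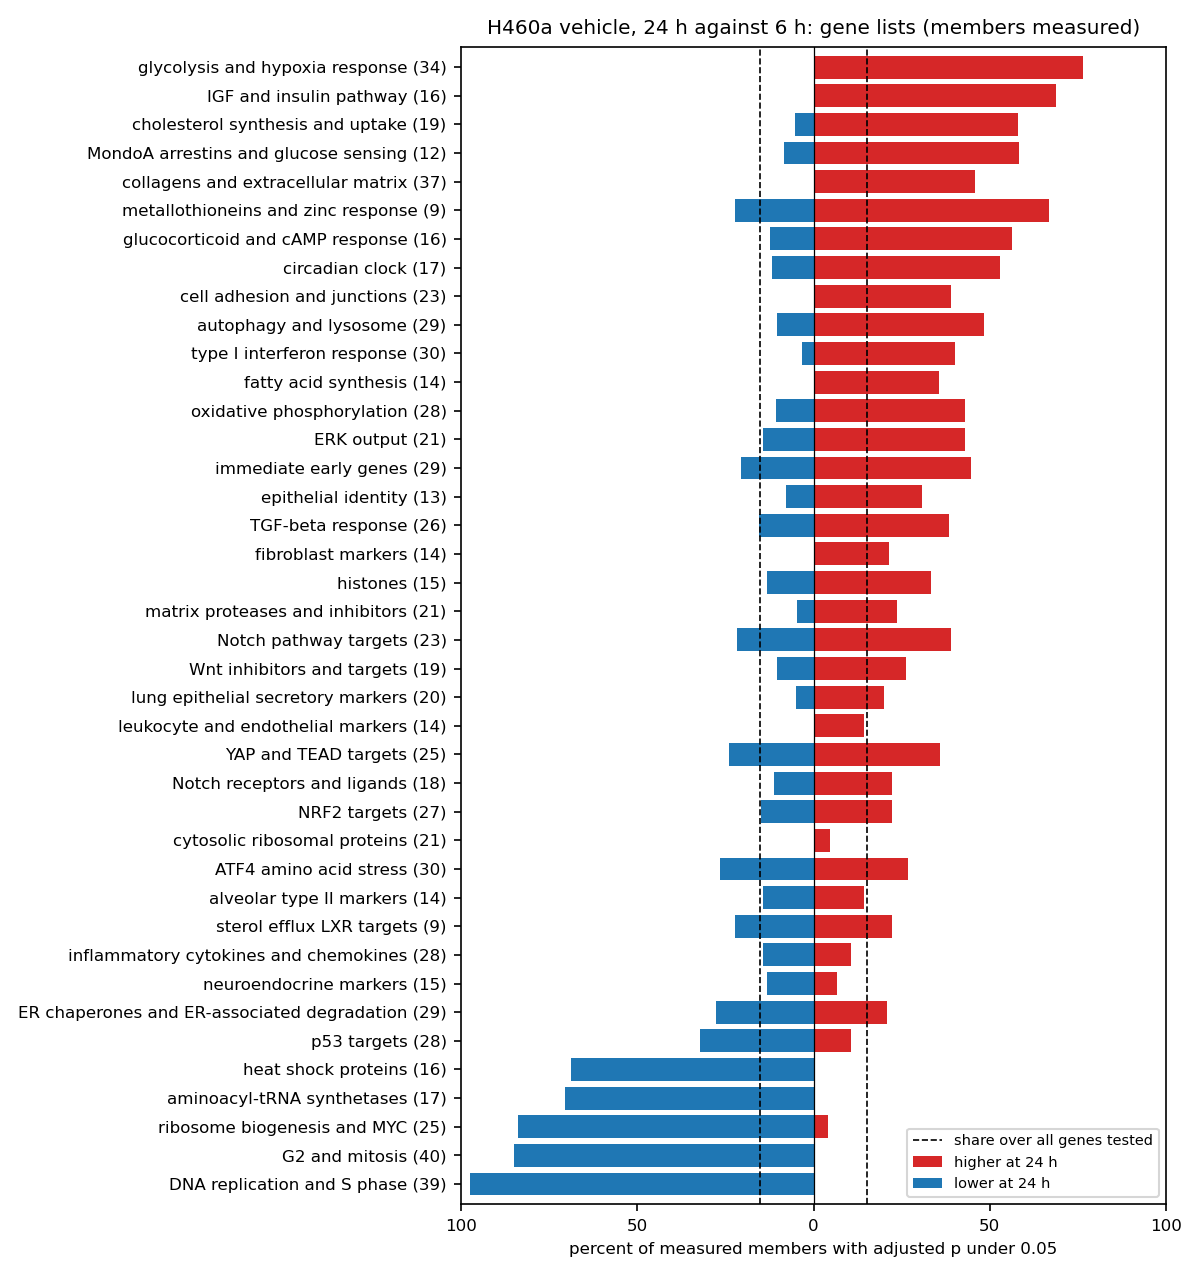
Share of the measured members of each of 40 gene lists that were called higher (right) or lower (left) at 24 h than at 6 h in H460a vehicle, in percent. Dashed lines mark the shares over all 19775 genes, 15.1% and 15.3%. The list of DNA replication and S phase reaches 97.4% lower, and that of glycolysis and hypoxia 76.5% higher.

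The largest rise belonged to TXNIP, an arrestin that restrains glucose uptake and binds thioredoxin. Its promoter is shown because it holds the paired E-box-like sequence through which MondoA and ChREBP, which sense sugar phosphates, are known to act. The capitals mark the match to CACGNG and CNCGNG set 5 bases apart, which begins 88 bases before the transcription start. The 250 bases upstream of the start in RefSeq (GRCh38.p14, chr1:145996580-145996829, minus strand) read as follows.
TXNIP: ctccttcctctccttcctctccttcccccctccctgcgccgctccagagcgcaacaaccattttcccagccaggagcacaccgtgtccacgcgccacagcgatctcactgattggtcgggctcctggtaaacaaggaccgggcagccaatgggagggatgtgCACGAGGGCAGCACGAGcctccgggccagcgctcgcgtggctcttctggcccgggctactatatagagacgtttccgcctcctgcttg
Of 15384 promoters of the same length for tested genes, 0.631% hold this motif on either strand. A match describes letters, not a bound site.

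TXNIP levels were 9.64, 9.47, 9.56 and 9.65 in the 4 arrays at 6 h and 12.18, 12.34, 12.31 and 12.17 at 24 h. Every 24 h array lay above every 6 h array by more than 2 log2 units. The difference was 2.67 with a standard error of 0.09, a 6.36-fold rise (limma adjusted p = 4.13e-20), and the other 2 probe sets of the gene rose by 2.39 and 2.57. Of the 12 measured genes of glucose sensing, 7 rose and 1 fell, with a median difference of 0.34 against 0.01 over all genes. PDK4, a kinase that closes the entry of pyruvate into the mitochondrion, was at 8.89, 8.59, 8.75 and 8.57 in the 4 arrays at 6 h and 10.57, 10.69, 10.93 and 10.75 at 24 h. The groups did not overlap, and PDK4 rose by 2.04 (4.11-fold, adjusted p = 3.28e-16). Another arrestin, ARRDC4, which like TXNIP is a known MondoA target, rose by 1.34 (2.53-fold), and ARRDC3 rose by 0.98 and ARRDC2 by 0.27. KLF10 rose by 0.46 and G6PC3, a glucose-6-phosphatase subunit, by 0.41. Of the sensors themselves, MLXIP, which encodes MondoA, fell by 0.28 (adjusted p = 0.00396), but did not pass with the mean of its probe sets (-0.189) or the most variable one (-0.322), while its partner MLX differed by -0.03 and MLXIPL, which encodes ChREBP, by 0.15, neither of which passed.

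Genes of glycolysis and of the hypoxia response rose together. Of 34 measured, 26 were called higher and 0 lower, with a median difference of 0.60 (0.54 without array 3 at 6 h). The promoters of 3 that rose are shown with the core letters of the hypoxia response element, ACGTG, in capitals on either strand. The core is also part of the E-box CACGTG, and in ALDOC it matches on both strands there. All are 250 bases upstream of the RefSeq start in GRCh38.p14, ALDOC at chr17:28576896-28577145 (minus strand), ENO2 at chr12:6914330-6914579 (plus strand) and P4HA1 at chr10:73096867-73097116 (minus strand).
ALDOC: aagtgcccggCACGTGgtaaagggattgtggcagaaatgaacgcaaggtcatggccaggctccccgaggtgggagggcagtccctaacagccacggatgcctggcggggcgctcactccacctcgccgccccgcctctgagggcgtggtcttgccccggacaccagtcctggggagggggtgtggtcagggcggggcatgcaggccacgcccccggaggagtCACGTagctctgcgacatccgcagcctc
ENO2: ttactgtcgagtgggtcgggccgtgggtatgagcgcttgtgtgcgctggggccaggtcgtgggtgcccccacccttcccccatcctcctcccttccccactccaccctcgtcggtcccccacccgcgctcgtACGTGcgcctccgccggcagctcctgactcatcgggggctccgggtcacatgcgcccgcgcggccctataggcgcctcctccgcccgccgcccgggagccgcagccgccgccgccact
P4HA1: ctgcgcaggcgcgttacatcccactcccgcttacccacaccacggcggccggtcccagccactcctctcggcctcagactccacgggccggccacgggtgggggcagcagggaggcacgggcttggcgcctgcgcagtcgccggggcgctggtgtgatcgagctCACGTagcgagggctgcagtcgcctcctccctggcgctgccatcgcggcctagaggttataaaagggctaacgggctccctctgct
The core was found in 11 of 22 such promoters of the genes that rose (50%) and in 21.2% of all promoters. It was also found in 7 of 16 promoters (43.8%) of ribosome-building genes that fell, that is, in genes of both directions.

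ALDOC, a brain-type aldolase of glycolysis, was at 9.35, 9.15, 9.35 and 9.44 in the 4 arrays at 6 h and 10.94, 11.01, 11.14 and 11.14 at 24 h. It rose 3.33-fold (1.73, SE 0.07, adjusted p = 1.37e-18), with no overlap. BNIP3L, a receptor that marks mitochondria for removal, rose by 1.89 (3.71-fold), and its relative BNIP3 by 0.92. NDRG1, a stress gene long used as a hypoxia marker, was at 9.26, 9.32, 9.60 and 9.56 in the 4 arrays at 6 h and 11.03, 11.09, 11.23 and 11.07 at 24 h. That is a rise of 1.67 (3.18-fold), without overlap. Both collagen prolyl hydroxylase subunits rose, P4HA2 by 1.53 and P4HA1 by 1.33.

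P4HA1 shows how array 3 at 6 h enters these values. Its levels were 11.74, 11.65, 10.79 and 11.66 in the 4 arrays at 6 h and 12.80, 12.75, 12.90 and 12.71 at 24 h. Array 3 was the lowest of the 8, and without it the rise was 1.11 (adjusted p = 6e-14). HK2, the inducible hexokinase, had its lowest value, 8.90, in the same array, against 9.83 to 10.24 in the others at 6 h, and its rise of 0.80 became 0.50 without it (adjusted p = 0.0021). With the mean of its probe sets HK2 differed by 0.021 and did not pass (adjusted p = 0.904). The enolase ENO2 went the other way, with array 3 at 9.30 and the other 6 h arrays at 8.63 to 8.81, and rose by 1.44 with it and 1.58 without.

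Along the pathway the rise was uneven. The neuronal-type glucose transporter SLC2A3 rose by 1.33 (2.51-fold), while the general transporter SLC2A1 lay at 9.86 ± 0.11 and 9.81 ± 0.02 and did not pass (adjusted p = 0.641). PDK1, the pyruvate dehydrogenase kinase induced by hypoxia, rose by 1.35, the lipase inhibitor ANGPTL4 by 1.29 and the regulatory enzyme PFKFB4 by 1.07. The oxygen-sensing hydroxylases EGLN1 and EGLN3 rose by 0.70 and 0.35, and VEGFA, the vascular growth factor, by 0.27 (adjusted p = 0.0129), with arrays that overlapped. VEGFA no longer passed without array 1 at 6 h or array 1 at 24 h (0.215 and 0.231), or with the mean of its probe sets (0.098). The 6 enzymes PKM, ALDOA, LDHA, GAPDH, PGAM1 and ENO1, all among the most abundant transcripts of a cell, differed by 0.04 to 0.18 and did not pass. For ALDOA and PKM this depended on the probe set, since ALDOA rose by 0.342 with the mean of its probe sets and by 0.715 with the most variable one, and PKM fell by 0.382 with the most variable one. LDHA passed after quantile normalization (0.118, adjusted p = 0.019). LDHA lay at 14.75 ± 0.03 and 14.84 ± 0.02, near the top of the scale. In LDHA, GAPDH and PKM every 24 h array lay above every 6 h array, although the differences did not pass.

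The opposite movement was most complete in the genes of DNA replication. Of 39 measured, 38 were called lower and 0 higher at 24 h, with a median difference of -0.77, and in 36 the 4 arrays at 24 h lay below all 4 at 6 h, against 14.5% of all genes. Without array 3 at 6 h the count was also 38. The exception was CDT1, a licensing factor whose protein is destroyed in S phase (-0.19, adjusted p = 0.124). Many of these genes are known E2F targets. Promoters of 2 that fell, chosen among members whose promoter holds the E2F motif, are shown with the motif in capitals. They cover 250 bases upstream of the RefSeq start in GRCh38.p14, for GINS2 at chr16:85688955-85689204 and for MCM7 at chr7:100101398-100101647, both on the minus strand.
GINS2: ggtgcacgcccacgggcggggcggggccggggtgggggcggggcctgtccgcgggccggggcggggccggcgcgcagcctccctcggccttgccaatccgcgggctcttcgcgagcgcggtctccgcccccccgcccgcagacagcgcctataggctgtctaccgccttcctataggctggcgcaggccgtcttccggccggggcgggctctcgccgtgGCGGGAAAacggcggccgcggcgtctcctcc
MCM7: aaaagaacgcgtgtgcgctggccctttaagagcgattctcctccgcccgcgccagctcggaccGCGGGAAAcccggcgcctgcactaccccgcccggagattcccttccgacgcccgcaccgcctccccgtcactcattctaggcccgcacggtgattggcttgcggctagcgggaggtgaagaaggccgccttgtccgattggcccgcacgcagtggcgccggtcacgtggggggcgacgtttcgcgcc
The letters TTTCCCGC or TTTGGCGC on either strand occurred in 11 of 34 promoters (32.4%) of the replication genes that fell, and in 2.54% of all promoters. Since nearly the whole list fell, this share describes the list, and its relation to the fall was not tested.

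CDC6, which loads the replicative helicase onto origins, was at 10.08, 10.13, 10.08 and 10.12 in the 4 arrays at 6 h and 8.88, 8.68, 8.92 and 9.03 at 24 h. Its groups were more than 1 log2 unit apart, and it fell by 1.23 (2.34-fold lower, adjusted p = 1.92e-13). MCM10, which helps start the replication fork, was at 9.73, 9.73, 10.08 and 9.80 in the 4 arrays at 6 h and 8.55, 8.46, 8.40 and 8.68 at 24 h. It fell by 1.31 (2.48-fold lower), also without overlap. All 6 subunits of the helicase ring MCM2 to MCM7 fell, by 0.60 for MCM2 to 0.86 for MCM5 and MCM7, and so did the helicase cofactors GINS1 (by 1.19), GINS2 (by 1.09), GINS3 (by 0.63), GINS4 (by 1.38) and CDC45 (by 0.95). PCNA, the sliding clamp of DNA polymerases, fell by 0.65 and the flap nuclease FEN1 by 1.04. The switch into S phase moved with them. CDC25A, the phosphatase that frees CDK2, fell by 1.30, the cyclins CCNE1 and CCNE2 by 0.64 and 0.88, and E2F1 itself by 0.56.

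Genes of G2 and mitosis fell less far. Of 40 measured, 34 fell and 0 rose, with a median of -0.43 (32 without array 3 at 6 h). CDC20, which activates the ubiquitin ligase of anaphase, was at 11.63, 11.56, 11.83 and 11.55 in the 4 arrays at 6 h and 10.46, 10.37, 10.70 and 10.47 at 24 h. It fell by 1.15 (2.21-fold lower), with no overlap. The mitotic cyclins CCNB1 and CCNA2 fell by 0.90 and 0.89, the kinases AURKB and PLK1 by 0.88 and 0.77, and the proliferation marker MKI67 by 0.60. TOP2A, the topoisomerase of dividing cells, lay at 11.99 ± 0.12 and 11.81 ± 0.07 and did not pass (adjusted p = 0.0949), but fell by 0.298 with the mean of its probe sets. The other 5 that did not pass were CDC25C, PTTG1, ECT2, AURKA and NEK2, with differences from -0.23 to 0.14. NEK2 passed with the mean of its probe sets (-0.282) and the most variable one (-0.338). In bulk RNA, fewer cells in a phase of the cycle and less RNA per cell cannot be told apart.

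Targets of the tumour suppressor p53 fell more often than they rose. CDKN1A, the p53-induced inhibitor p21, fell by 0.16 (adjusted p = 0.0217), and no longer passed without array 3 at 6 h, array 2 at 24 h or array 4 at 24 h (-0.142, -0.156 and -0.155). Of 28 p53 targets 3 rose and 9 fell, which is 10.7% and 32.1% against 15.1% and 15.3% over all genes. The risers were TP53INP1 (0.67), CCNG1 (0.53) and ZMAT3 (0.34), the last not without array 4 at 6 h or array 1 at 24 h (0.268 and 0.284) or with its most variable probe set (0.149). The death receptor FAS fell by 0.82 and the apoptosis gene PMAIP1 by 0.80. CCNG2, a cyclin-related gene known to be repressed by growth signals, rose by 1.60 (3.03-fold), though 1 of its 4 other probe sets differed by -0.11.

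**Figure D2:**
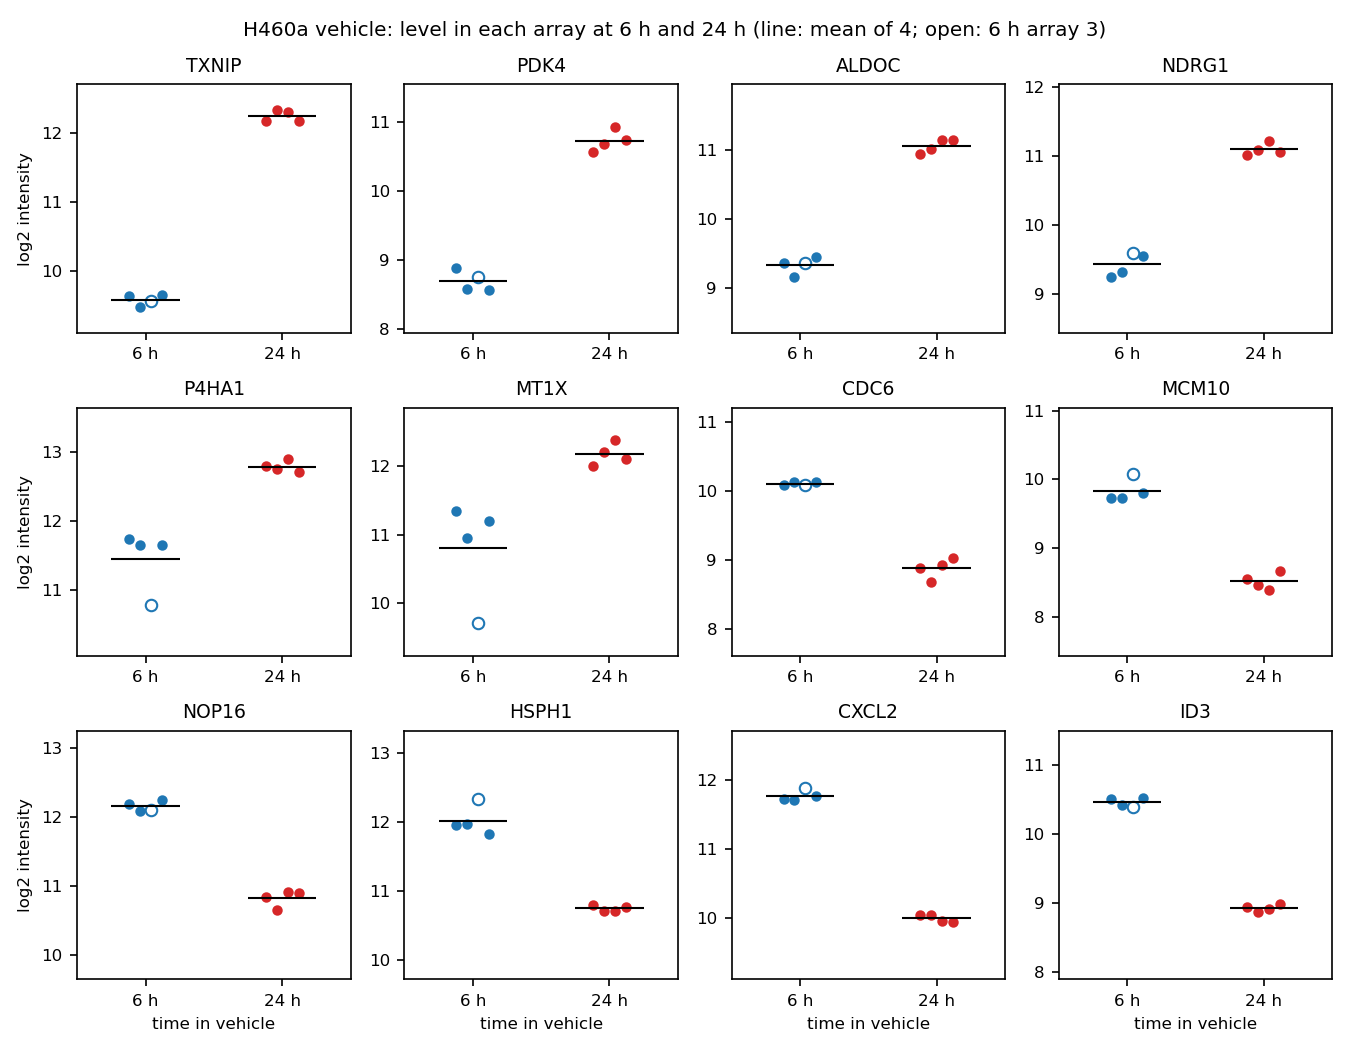
Log2 intensity of 12 genes in each H460a vehicle array at 6 h (blue) and 24 h (red), with a line at the mean of 4 and an open symbol for array 3 at 6 h. All panels span the same number of log2 units. No panel has overlapping times, and array 3 stands below its group in P4HA1 and MT1X.

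Genes for building ribosomes were lower at 24 h, and MYC was higher. Of 25 genes in the list 21 fell, and 1, MYC itself, rose, with a median of -0.56. MYC, the factor that drives many of these genes, was at 12.52, 12.49, 12.47 and 12.54 in the 4 arrays at 6 h and 12.71, 12.63, 12.78 and 12.73 at 24 h. It rose by 0.21 (adjusted p = 0.00988), with no overlap. NOP16, a nucleolar protein of the large subunit, was at 12.19, 12.08, 12.11 and 12.25 in the 4 arrays at 6 h and 10.84, 10.65, 10.92 and 10.90 at 24 h. It fell by 1.33 (2.52-fold lower, adjusted p = 5.92e-18), and the 24 h arrays all lay below the 6 h arrays. ODC1, the first enzyme of polyamine synthesis and a known MYC target, fell by 1.00, the box C/D protein NOP58 by 0.92, the rRNA methyltransferase NOP2 by 0.85 and the nucleolar helicase DDX21 by 0.83. Subunits of RNA polymerase I fell by 0.30 (POLR1A), 0.72 (POLR1B) and 0.51 (POLR1C). NPM1 (-0.05), FBL (-0.11) and TBRG4 (0.10) did not pass. Further nucleolar genes were among the 20 largest falls, with GPATCH4 lower by 1.44, LYAR by 1.26 and CCDC86 by 1.19, although 1 of 4 other probe sets of GPATCH4 differed by 0.02.

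The protein components of the finished ribosome did not follow. Of 21 cytosolic ribosomal protein genes 20 did not pass, with a median of 0.05. The exception was RPL38 (0.33, adjusted p = 0.0499). Its levels were 14.49, 14.49, 13.43 and 14.43 in the 4 arrays at 6 h and 14.48, 14.57, 14.59 and 14.50 at 24 h. Array 3 lay 1 log2 unit below the rest, and without it the difference was 0.07 (adjusted p = 0.5). The call was also lost on leaving out any 1 array at 24 h (0.306 to 0.346). Of 17 aminoacyl-tRNA synthetases, which charge tRNAs for translation, 12 fell and 0 rose, with a median of -0.35. FARSA fell by 0.70, HARS1 by 0.63 and WARS1 by 0.62. Without array 3 at 6 h 10 fell and 1, EPRS1 (0.19), rose. Amino acid supply was mixed, with 8 of 30 ATF4 targets higher and 8 lower (26.7% each, against 15.1% and 15.3% over all genes). The leucine transporter SLC7A5 fell by 0.90 and the factor ATF5 by 0.84, while VLDLR rose by 1.5 and CTH, an enzyme of cysteine synthesis, by 0.96.

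Most heat shock proteins were lower at 24 h. Of 16 measured, 11 fell and 0 rose, with a median of -0.52. HSPH1, a nucleotide exchange factor of HSP70, was at 11.96, 11.97, 12.34 and 11.83 in the 4 arrays at 6 h and 10.80, 10.71, 10.72 and 10.76 at 24 h. Array 3 was the highest at 6 h, and the fall was 1.27 with it (2.42-fold lower, adjusted p = 8.99e-12) and 1.17 without. The HSP70 cochaperones DNAJB1 and DNAJA1 fell by 1.02 and 0.99, and the small heat shock protein CRYAB by 0.87. Both cytosolic HSP90 genes fell, HSP90AA1 by 0.33 and HSP90AB1 by 0.24, the latter not with the mean of its probe sets (-0.169) or the most variable one (-0.111). HSF1, the factor itself, differed by -0.04 (-0.17 without array 3 at 6 h) and did not pass. HSPB1 had array 3 at 10.87 and the other 6 h arrays at 12.26 to 12.45, and its difference was 0.36 (adjusted p = 0.131), -0.01 without array 3, and past the threshold without array 1 (0.521) or array 2 (0.485) at 6 h.

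Chaperones of the endoplasmic reticulum were divided. Of 29 genes 6 rose and 8 fell, which is 20.7% and 27.6% against 15.1% and 15.3% over all genes. The median was 0.11 (0.06 without array 3 at 6 h). HSP90B1 rose by 0.43, but not past the threshold with the mean of its probe sets (0.271) or the most variable one (0.112), while SELENOS, DERL2 and DNAJC3, which serve degradation or the stress response there, fell by 0.87, 0.56 and 0.52. PDIA4, a disulfide isomerase, rose by 0.51, but did not pass without array 3 at 6 h (0.227) or array 3 at 24 h (0.392). Of 27 antioxidant genes controlled by NRF2, 6 rose and 4 fell, which is 22.2% and 14.8% against 15.1% and 15.3% over all genes. HMOX1, heme oxygenase, fell by 0.81, and GCLM, a subunit of the enzyme that begins glutathione synthesis, by 0.53 (-0.297 and not past the threshold with its most variable probe set), while ALDH3A1, an aldehyde dehydrogenase, rose by 0.98. In a line with mutated KEAP1 this pathway is known to be active without a stimulus.

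Of 7 measured metallothioneins, small proteins that bind zinc and copper, 6 rose and 1 did not pass. MT1X was at 11.34, 10.95, 9.71 and 11.20 in the 4 arrays at 6 h and 11.99, 12.20, 12.37 and 12.10 at 24 h. Array 3 was the lowest by more than 1 log2 unit, and the rise of 1.36 became 1.00 without it (adjusted p = 1.6e-09). MT2A rose by 1.22 with that array and 0.97 without, and MT1F by 1.19 and 0.90. The metallothionein genes are near-identical copies, so their probe sets may share signal. The zinc exporter SLC30A1 (-0.31) and the zinc sensor MTF1 (-0.18, adjusted p = 0.0474) fell, SLC30A1 not with its most variable probe set (-0.281). MTF1 lost its call on leaving out any 1 array but array 2 at 6 h (-0.146 to -0.2).

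The largest fall was in CXCL2, a chemokine that attracts neutrophils, with its neighbour CXCL3 also among the 20 largest. Their promoters are shown because both hold the NF-kappaB motif (GGG, any 2 bases, then TTTCC), in capitals, in like positions, 78 and 79 bases before the start. They cover 250 bases upstream of the RefSeq start in GRCh38.p14, CXCL2 at chr4:74099196-74099445 and CXCL3 at chr4:74038690-74038939, both on the minus strand.
CXCL2: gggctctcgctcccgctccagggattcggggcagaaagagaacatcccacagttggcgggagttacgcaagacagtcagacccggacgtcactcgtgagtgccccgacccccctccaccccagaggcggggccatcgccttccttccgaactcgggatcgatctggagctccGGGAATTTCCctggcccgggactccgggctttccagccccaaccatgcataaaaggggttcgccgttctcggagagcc
CXCL3: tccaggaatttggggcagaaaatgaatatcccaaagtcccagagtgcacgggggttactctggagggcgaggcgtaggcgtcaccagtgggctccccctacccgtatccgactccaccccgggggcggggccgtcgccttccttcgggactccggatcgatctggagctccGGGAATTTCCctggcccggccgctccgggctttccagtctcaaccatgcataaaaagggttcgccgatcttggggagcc
Of all promoters of this length, 1.88% hold the motif on either strand.

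CXCL2 was at 11.73, 11.72, 11.89 and 11.77 in the 4 arrays at 6 h and 10.05, 10.06, 9.96 and 9.95 at 24 h. The times did not overlap, and the fall was 1.77 (3.42-fold lower, adjusted p = 8.38e-14). Its other 2 probe sets did not move as far, with differences of -0.38 and 0.08, so the size rests on the brightest probe set. CXCL3 was at 9.61, 9.71, 9.52 and 9.67 in the 4 arrays at 6 h and 8.26, 8.29, 8.33 and 8.44 at 24 h. It fell by 1.30 (2.46-fold lower), without overlap. The genes are near copies of each other, and cross-hybridisation between them was not tested. CXCL1 fell by 0.54 and the epithelial chemokine CCL20 by 0.55. CXCL8 (-0.19, adjusted p = 0.15) and IL6 (0.23, adjusted p = 0.0789) did not pass, although the 2 times did not overlap in either gene. Of 28 cytokine genes 3 rose and 4 fell, which is 10.7% and 14.3% against 15.1% and 15.3% over all genes, and 4 rose and 6 fell without array 3 at 6 h. The risers were CXCL16 (0.78), IL1B (0.30) and LIF (0.21). LIF no longer passed without array 1 or 2 at 6 h or array 2 or 3 at 24 h (0.166, 0.182, 0.168 and 0.190).

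Genes of the type I interferon response leaned upward, with 12 of 30 higher and 1 lower (2 without array 3 at 6 h) and a median of 0.19. IFIT1, an RNA-binding antiviral protein, rose by 1.08 from 6.93 ± 0.17 to 8.01 ± 0.09, ISG20, a nuclease, by 0.88, and IRF9, a subunit of the interferon-activated factor, by 0.80. IFI35 fell by 0.26. MX1, RSAD2 and IFIT3, which usually respond with them, differed by -0.07, -0.01 and 0.03 and did not pass.

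Genes of growth factor signalling moved in both directions. ID3, a dominant negative partner of helix-loop-helix factors and a target of BMP signals, was at 10.51, 10.42, 10.39 and 10.53 in the 4 arrays at 6 h and 8.93, 8.86, 8.91 and 8.98 at 24 h. It fell by 1.54 (2.90-fold lower, adjusted p = 5.92e-18), with no overlap, while ID2 did not pass (-0.02). ID1 had array 3 at 10.97, more than 1 log2 unit below the other 6 h arrays, and its difference was -0.27 with it (adjusted p = 0.14) and -0.54 without (adjusted p = 1.18e-07). Of 26 TGF-beta response genes 10 (38.5%) rose and 4 (15.4%) fell, against 15.1% and 15.3% over all genes. TGFB2 was higher by 1.02 and PMEPA1, an inhibitor of the pathway, lower by 0.69. Among 21 ERK output genes 9 (42.9%) rose and 3 (14.3%) fell. DUSP6, the ERK phosphatase that rises with ERK activity, rose by 0.99 and DUSP4 by 0.64, yet FOSL1, another ERK output, fell by 0.78. Of 29 immediate early genes 13 (44.8%) rose and 6 (20.7%) fell, 3 without array 3 at 6 h. KLF2 rose by 1.28 (1.16 without array 3 at 6 h), DUSP1 by 0.95 and JUNB by 0.76, and JUN fell by 0.53 and NR4A2 by 0.35.

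Genes that answer glucocorticoids and cyclic AMP rose in 9 of 16 cases and fell in 2, with a median of 0.51. TSC22D3, also called GILZ, was at 8.88, 8.73, 8.83 and 8.74 in the 4 arrays at 6 h and 10.24, 10.19, 10.31 and 10.23 at 24 h. It rose by 1.45 (2.74-fold, adjusted p = 2.21e-17), with no overlap. CITED2, a coactivator inhibitor that is also induced by hypoxia, rose by 1.57, KLF9 by 1.36 and PPARGC1A, a coactivator of mitochondrial genes, by 0.94. FKBP5, one of the most widely used glucocorticoid targets, fell by 0.77, and the kinase SGK1 by 0.24. Of 17 clock genes 9 rose and 2 fell, 3 without array 3 at 6 h. DBP, an output of the clock, rose by 1.20 and RORA by 0.99, while CRY1 fell by 0.60 and BMAL1 by 0.22. With 2 times, no rhythm can be read from these values.

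Insulin and insulin-like growth factor genes rose in 11 of 16 cases and fell in 0, with a median of 0.38. IGFBP3, a secreted binding protein, was at 12.79, 12.57, 12.98 and 12.85 in the 4 arrays at 6 h and 14.01, 14.04, 14.08 and 14.05 at 24 h. It rose by 1.25 (2.37-fold), with no overlap. The receptors IGF2R and IGF1R rose by 0.88 and 0.83, the adaptor IRS2 by 0.35, and FOXO3, a factor that insulin signals keep out of the nucleus, by 0.79. With the most variable probe set IGF1R (0.537) and IRS2 (0.152) did not pass. Targets of the Notch pathway, which the series was set up to inhibit, moved in both directions over time. Among 23 of them 9 rose and 5 fell, with a median of 0.04. That is 39.1% and 21.7%, against 15.1% and 15.3% over all genes. HES1 lay at 6.69 ± 0.19 and 6.44 ± 0.18 and did not pass (adjusted p = 0.144), the receptor NOTCH3 rose by 0.49 and BCL6 by 1.03, and NOTCH1 fell by 0.36. HEY1 rose by 0.24, but not past the threshold without array 2 at 6 h, array 4 at 6 h or array 3 at 24 h (0.197, 0.219 and 0.202). YAP and TEAD targets, which report cell spreading and contact, were also split. Against 15.1% and 15.3% over all genes, 9 of 25 (36.0%) were higher and 6 (24.0%) lower. Among them AXL rose by 0.74 and CCN2 by 0.73, while CCN1 (-0.11) and ANKRD1 (0.12) did not pass. Of 19 Wnt genes 5 rose and 2 fell (4 and 1 without array 3 at 6 h). That is 26.3% and 10.5% with all arrays, against 15.1% and 15.3% over all genes. The Wnt inhibitor DKK1 fell by 0.86.

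Matrix and junction genes rose or did not pass. Of 37 matrix genes 17 rose and 0 fell, with a median of 0.26. LAMB1, a laminin chain of basement membranes, was at 10.76, 11.01, 11.24 and 10.75 in the 4 arrays at 6 h and 12.13, 12.01, 12.23 and 12.18 at 24 h. It rose by 1.20 (2.29-fold), with no overlap. LOXL2, an enzyme that crosslinks collagen, rose by 1.06, the laminin LAMA5 by 0.77 and COL4A5 by 0.68. COL4A4, a basement membrane collagen outside the list, rose by 1.63, although 1 of its 2 other probe sets differed by 0.00. Of 23 adhesion genes 9 rose and 0 fell. Of the desmosome, which ties epithelial cells together, PPL rose by 2.14 (4.39-fold), PKP2 by 1.12, JUP by 0.93 and DSG2 by 0.55, while DSC2 (0.09) and PKP3 (-0.06) did not pass. With the most variable probe set DSG2 did not pass (0.080) and DSC2 did (0.436). PPL, which encodes periplakin, was at 6.75, 7.15, 7.03 and 7.15 in the 4 arrays at 6 h and 9.03, 9.10, 9.55 and 8.96 at 24 h. Its groups were well apart, whereas the cadherin CDH1 remained at the lowest levels. MUC1, a membrane mucin of epithelia, rose by 1.41. Of 21 matrix proteases and inhibitors 5 (23.8%) rose and 1 (4.76%), MMP1, fell by 0.74, against 15.1% and 15.3% over all genes.

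In the lists of lipid, lysosome and mitochondrial genes no difference reached 1 log2 unit. Of 19 genes of cholesterol synthesis 11 rose (median 0.23) and 1, NSDHL, fell by 0.19, a call lost without array 3 at 6 h (-0.142) or array 2 at 24 h (-0.142). In this list INSIG1, the sterol sensor's anchor, rose by 0.77 and MSMO1 by 0.64. For fatty acid synthesis the count was 5 of 14 higher and 0 lower (1 without array 3 at 6 h), including the desaturase SCD (0.52). Of 9 LXR targets 2 rose, among them the cholesterol exporter ABCA1 (0.57), and 2 fell (1 without array 3 at 6 h), with a median of -0.01. Each count is 22.2% of the list, against 15.1% and 15.3% over all genes. Autophagy and lysosome genes rose in 14 of 29 cases and fell in 3, with GABARAPL1, an autophagosome protein, higher by 0.83 and the cathepsins CTSB and CTSD both by 0.44. The autophagy cargo receptor SQSTM1 fell by 0.44, but not past the threshold with the mean of its probe sets (-0.103). Of 28 genes of oxidative phosphorylation 12 rose and 3 fell, within a range from -0.32 to 0.54. Of 15 histone genes 5 rose, among them H2AC6 (1.01), and 2 fell, H2AX (-0.83) and H2AZ1 (-0.32). Histone genes of 1 type are near copies, and most of their transcripts lack the poly-A tail that the labelling reaction primes from.

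Other genes among the 20 largest rises came from no shared list. NRN1, a protein of nerve cell growth, was at 7.32, 7.03, 7.83 and 7.27 in the 4 arrays at 6 h and 9.69, 9.63, 9.86 and 9.75 at 24 h. It rose by 2.37 (5.18-fold), with array 3 the highest of the 6 h arrays and still below every 24 h array. SPAG4, a nuclear envelope protein, rose by 2.21 (4.61-fold), PPFIA4 by 1.99, FGG, a fibrinogen chain, by 1.86, TMEM45A by 1.70 and COXFA4L2, a mitochondrial protein also known to be induced by hypoxia, by 1.64. HAL, histidine ammonia-lyase, rose by 2.06, but 1 of its 2 other probe sets differed by -0.08. CYP4X1 rose by 1.89 from 4.62 ± 0.21, near the lowest levels on the array, and the noncoding LINC00189 by 1.91 from 5.18 ± 0.24. CREBRF and NFE2 rose by 1.73 and 1.62 from levels of 5.47 ± 0.48 and 5.57 ± 0.26.

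Among the other largest falls were TUBB2A, a beta-tubulin (-1.52), SLC29A1, the nucleoside transporter ENT1 (-1.40), and PNP, the phosphorylase that breaks down purine nucleosides (-1.20). PHLDA2, an imprinted gene that limits placental growth, fell by 1.23, the kinase gene CDKL1 by 1.24 and the retroviral envelope gene ERVMER34-1 by 1.38. SLC29A1 was at 10.07, 9.96, 9.21 and 10.09 in the 4 arrays at 6 h and 8.48, 8.31, 8.33 and 8.60 at 24 h. Array 3 at 6 h was the lowest of its group, and without it the fall was 1.61. With its most variable probe set NAA15 did not pass (-0.431, adjusted p = 0.6). ATP6V0A2 (-1.28) and NAA15 (-1.25) each had 1 of 5 other probe sets with a difference just above 0, at 0.04 and 0.07. TUBB2A has a near copy, TUBB2B, whose signal its probe set may share. All 40 genes of the largest rises and falls were called in the same direction without array 3 and after quantile normalization.

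Markers of other cell types moved little or through single genes. Of 14 leukocyte and endothelial markers 2 (14.3%) rose and 0 fell, against 15.1% and 15.3% over all genes. Their summed intensity went from 1590 to 1750 at 6 h to 2300 to 2680 at 24 h. The 2 genes that rose were KDR, the VEGF receptor, and CD14. KDR was at 7.71, 7.50, 7.84 and 7.45 in the 4 arrays at 6 h and 9.41, 9.03, 9.64 and 9.23 at 24 h. It rose by 1.70, without overlap, while PTPRC and CDH5 stayed near the lowest levels. Fibroblast markers summed to 40600 to 49100 at 6 h and 52300 to 54500 at 24 h, with 3 of 14 (21.4%) higher. These were LUM (1.01, from 4.92 ± 0.17), S100A4 (0.43, and 0.21 without array 3 at 6 h) and ACTA2 (0.35). With the mean of its probe sets ACTA2 did not pass (0.076). S100A4, which enters the fibroblast sum, was at 13.36 in array 3 at 6 h and at 14.17 to 14.29 in the other 6 h arrays. The sums were not taken without that array. Secretory markers summed to 16900 to 19600 and 21700 to 24200. Among these 20 markers 4 (20%) were higher and 1 (5%) lower, against 15.1% and 15.3% over all genes. The count of higher markers was 3 without array 3 at 6 h. Sums ran from 4190 to 4610 and 4580 to 5460 for alveolar type II markers (2 of 14 higher and 2 lower, 14.3% each). For neuroendocrine markers they ran from 19600 to 21000 and 18200 to 18600 (1 of 15, 6.67%, higher, and 2, 13.3%, lower, 1 without array 3 at 6 h). For the epithelial list they ran from 30200 to 39200 and 35400 to 38900 (4 of 13, 30.8%, higher, 2 without array 3 at 6 h, and 1, 7.69%, lower). Their part in the other changes was not tested.

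The same interval in H460a cells given RO4929097 provided 8 further arrays that share none with the vehicle comparison. There, 6508 genes (32.9%) were called, 2900 (14.7%) higher and 3608 (18.2%) lower. Of the 6004 genes called in vehicle, 78.7% were called in the same direction with the inhibitor, which is 72.6% of the calls made there, and 6 were called in opposite directions. All 40 genes of the largest rises and falls were called in the same direction. TXNIP rose by 2.61 with the inhibitor and 2.67 in vehicle, ALDOC by 1.75 and 1.73, and NOP16 fell by 1.34 and 1.33. The replication list had 38 of 39 genes lower in both, with medians of -0.84 with the inhibitor and -0.77 in vehicle, and the heat shock list 12 and 11 of 16 lower. The hypoxia list had 22 of 34 higher with the inhibitor and 26 in vehicle.

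**Figure D3:**
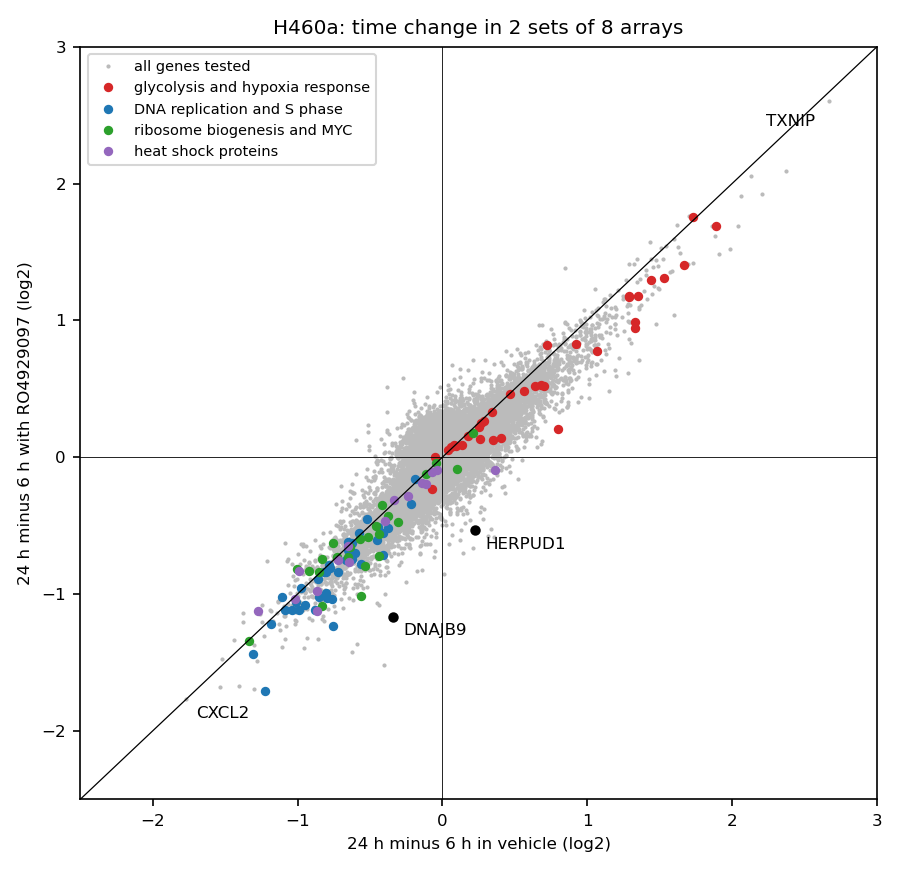
Difference between 24 and 6 h on the log2 scale for each of 19775 genes in H460a vehicle (x axis) and in H460a with RO4929097 (y axis). The diagonal marks equal differences. Coloured points are members of 4 gene lists, and the black points DNAJB9 and HERPUD1 are the 2 genes whose differences were called unequal.

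The difference between the time changes was itself tested. It was called in 2 of 19775 genes (0.0101%), both of the endoplasmic reticulum stress response, and 1507 genes (7.62%) had an unadjusted p under 0.05. DNAJB9, a chaperone of that compartment, fell by 0.34 in vehicle and by 1.17 with the inhibitor. Its vehicle levels were 8.78, 8.83, 9.18 and 8.88 in the 4 arrays at 6 h and 8.59, 8.57, 8.53 and 8.62 at 24 h. HERPUD1, a membrane protein that helps degrade unfolded proteins, rose by 0.22 in vehicle and fell by 0.53 with the inhibitor. With the mean of its probe sets HERPUD1 did not pass in vehicle (0.069). A p that misses the threshold does not show that the other genes moved alike.

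In A549 vehicle cells the same hours gave a pattern that was alike only in part. Of the 6004 genes called in H460a vehicle, 36.7% were called in the same direction in A549 vehicle and 1139 genes in the opposite direction. Across all genes the 2 time changes correlated at 0.23. The time change differed between the lines in 7023 genes (35.5%), with 2202 (11.1%) higher and 4821 (24.4%) lower in H460a. The A549 vehicle arrays at 6 h were dimmer, with mean intensities of 468.1 to 495.7, and after quantile normalization the split was 2864 (14.5%) higher and 2946 (14.9%) lower. For TXNIP the level in A549 went from 6.80 to 7.43, a rise of 0.63, which left a difference between the lines of 2.04 (SE 0.13, adjusted p = 6.44e-13, and 1.93 after quantile normalization). NRN1 differed by 2.70 and PPFIA4 by 2.08. CXCL2 rose by 0.94 in A549 and fell by 1.77 in H460a, a difference of -2.71 (adjusted p = 1.2e-13, and -2.55 after quantile normalization). RDH10, a retinol dehydrogenase, rose by 1.08 in A549 and fell by 1.01 in H460a (8.63 ± 0.07 to 7.61 ± 0.09), a difference of -2.09.

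Gene by gene, many members of the lists that fell in H460a differed from A549. In the ribosome-building list 21 of 25 genes were lower in H460a by this test, 17 after quantile normalization, with a median time change of -0.56 in H460a and 0.16 in A549. For heat shock proteins it was 13 of 16, and 9 after quantile normalization, with medians of -0.52 and 0.24. The replication list gave 33 of 39, and 23 after quantile normalization, with medians of -0.77 and -0.20. PCNA fell by 0.65 in H460a and rose by 0.49 in A549, a difference of -1.14 on the deposited scale. The list medians are also on that scale, where the bright cytosolic ribosomal protein genes had an A549 median of 0.38. The A549 medians were not taken after quantile normalization. The hypoxia list gave 15 of 34 higher and 3 lower, and 26 and 0 after quantile normalization, with medians of 0.60 and 0.35. For cytosolic ribosomal proteins the result depended on scaling, with 17 of 21 called lower in H460a on the deposited scale and 1 after quantile normalization. Of the 20 largest rises 19 differed from A549, FGG being the exception (1.86 in H460a and 1.72 in A549), and all 20 largest falls did.

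**Figure D4:**
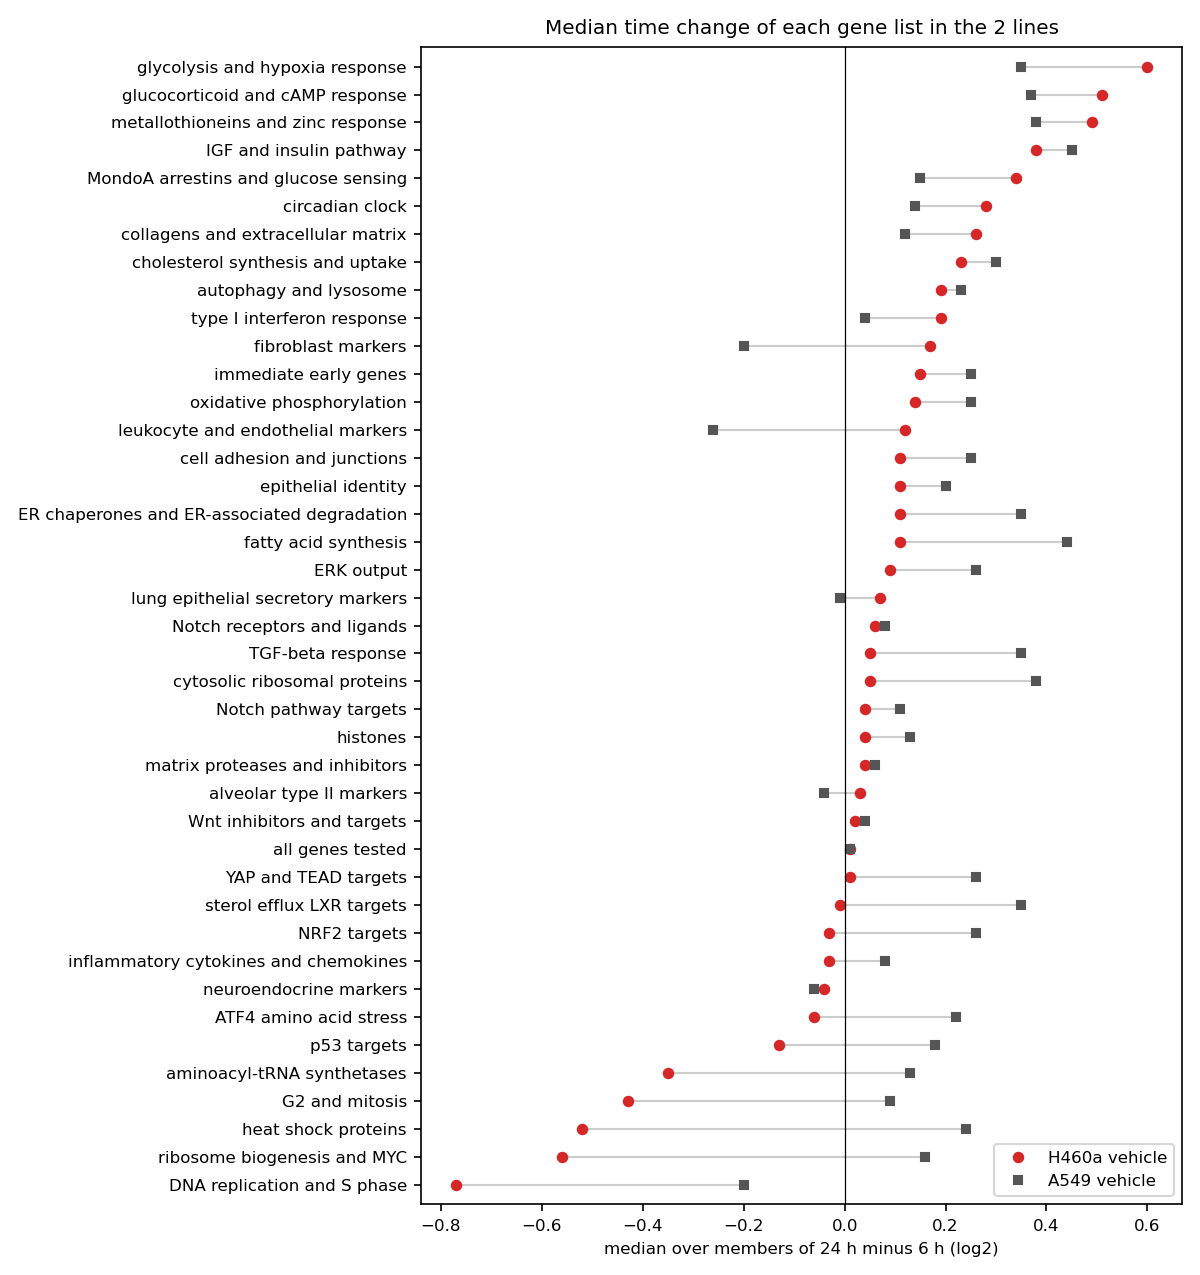
Median over the members of each gene list of the difference between 24 and 6 h, on the log2 scale, in H460a vehicle (circles) and A549 vehicle (squares). Values are on the deposited scale, without quantile normalization, and the A549 arrays at 6 h were dimmer. The ribosome-building list lies at -0.56 in H460a and 0.16 in A549, and the list of all genes tested at 0.01 in both.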

How the data were processed

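RNA was measured on an Affymetrix array of 54675 probe sets with 15 µg total RNA per sample, per the labels' protocols. The deposited values are intensities on a linear scale. The submitters' processing notes name RMA, whose version is not given in the sources used here. RMA summarises and normalizes probes over the arrays it is run on, so a change shared by all genes cannot be seen. Values were log2-transformed with no further scaling. A remark about embryos in the descriptions matches no other label and was set aside.

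Of the probe sets, 62 controls, 1801 with several symbols and 11721 with none named were left out, and 41091 stand for 19775 genes. For 10523 genes with several probe sets the one with the highest mean over 32 arrays was used. In R 4.3.3, limma 3.58.1 (lmFit, then eBayes without options) estimated 8 group means from the 32 arrays together, with Benjamini-Hochberg adjustment of p-values in each contrast. Lists are described by counts and medians without a test of their own.

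The comparison, the 40 gene lists and the naming rule were chosen with earlier results of these data known. The rule names the 20 largest rises and 20 largest falls among called genes without overlap, up to 10 called members of each list, a fixed set of 42 genes (37 measured), and up to 6 genes each way for the differences between lines and treatments. Other named genes, such as members that did not pass, were chosen after their values were seen. The other genes of the fixed set were not analysed here.

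On simulated data of 19775 genes for this comparison, 19, 45, 50 and 50 of 50 genes changed by 1.25, 1.5, 2 and 4 fold were found, and 3 of 167 calls were false. The simulated noise was independent with the same spread in every array, so no array stood apart as array 3 at 6 h did. Far fewer genes changed than were called in the real data, and these rates need not hold there. Replicate numbers did not pair the arrays. Alternatives concerned the arrays fitted, filters, probe set rules, scaling, an offset of 32, a minimum difference of 0.58, eBayes options, array weights, a replicate block and leaving out each array. Promoters came from RefSeq (GRCh38.p14), first entry per symbol, 250 bases upstream of the start, with motifs sought on both strands. Figures were drawn with matplotlib 3.10.9 and pandas 2.3.3 in Python 3.11.15.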

Additional observations from a re-analysis of the deposited data

Results flagged for a closer look

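In 33 of 452 sets of 4 arrays, 1 array lay far from the other 3 for a gene named in the text by Dixon's test, where chance gives about 1 in 20. Array 3 at 6 h was that array in 17 of them. It was the low one for HSPB1 (10.87, others 12.26 to 12.45), ID1 (10.97, others up to 12.15), RPL38 (13.43, others 14.43 to 14.49), P4HA1 (10.79, others 11.65 to 11.74), S100A4 (13.36, others 14.17 to 14.29), SLC29A1 (9.21, others 9.96 to 10.09) and TGFB2 (9.49, others 10.13 to 10.24). The same array was low by smaller gaps for GABARAPL1 (8.0), PLK1 (11.19), PKP3 (9.27) and DUSP4 (11.38). It was the high one for IFIT1 (7.19), DERL2 (10.82), GINS3 (9.45), CITED2 (10.89), IGF1R (10.40) and NSDHL (9.81).

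Among the other arrays at 6 h, array 1 was high for CYP4X1 (4.93) and EGLN1 (11.69), array 2 was low for MUC1 (8.22, others 8.87 to 8.90) and AURKB (10.30), and array 4 was low for PPARGC1A (5.93). At 24 h, array 3 was low for NAA15 (7.72, others 8.80 to 8.97) and MTF1 (8.46) and high for CTSB (11.73), PKP3 (9.78), BCL6 (9.97) and KLF2 (11.64). Array 2 at 24 h was low for CCDC86 (8.98) and SQSTM1 (12.62), and array 4 was high for CCNG1 (13.28) and low for IGF1R (10.92) and ENO1 (14.57).

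The time change differed between the lines by the test of the difference for 12 genes named by size. It was larger in H460a than in A549 for NRN1 (2.70), PPFIA4 (2.08), TXNIP (2.04), LINC00189 (2.00), SPAG4 (1.91) and CYP4X1 (1.76). For CXCL2 (-2.71), RDH10 (-2.09), PHLDA2 (-2.02), CXCL3 (-1.97), TUBB2A (-1.96) and ID3 (-1.83) H460a fell while A549 rose on the deposited scale. On that scale the A549 vehicle arrays at 6 h were dimmer, and the rise of ID3 in A549 was 0.30. DNAJB9 fell less in vehicle than with RO4929097, by 0.82, and HERPUD1 rose in vehicle and fell with RO4929097, a difference of 0.76.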

How the results depend on the processing

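Under the alternatives other than a minimum difference, between 5010 (fitting only the 8 arrays) and 7020 genes (array weights) were called for 24 against 6 h, all within 1.5 times the 6004 of the chosen fit. With a difference of at least 0.58 also required, 1383 were called, 732 higher and 651 lower. Leaving out 1 array gave 5454 to 5891 calls, 2627 to 2976 higher and 2677 to 2974 lower. The replicate block gave 5912 calls, 6413 with RO4929097, 6905 for the difference between lines and 2 for that between treatments. Same-numbered arrays at 6 and 24 h deviated with correlations of -0.13, -0.01, -0.25 and 0.03, so the numbers were not taken as pairs. The difference between treatments was called in 4 genes after quantile normalization and in 4 without array 3 at 6 h. Of 226 genes named, 197 had a value in all 20 alternatives other than the minimum difference, and 159 of these kept their direction and their side of the threshold in all 20. The other 29 lay below the median level, which 1 alternative leaves out, and kept both in the remaining 19. Fitting only the 8 arrays ended the calls of ARRDC2, CDKN1A, HERPUD1, HEY1, LIF, MTF1, NSDHL, PDIA4, RPL38, S100A4 and VEGFA (adjusted p = 0.0526 to 0.293, limma). CDKN1A (-0.120) and MTF1 (-0.187) also did not pass after quantile normalization, and PDIA4 not with array weights (0.210). IL6 passed in 5 alternatives (0.231 to 0.283) and PKM upward in 4 (0.177), while array weights called HES1 (-0.351), HSF1 (-0.188) and PKP3 (-0.198). RPL38 changed sign with the mean of all probe sets (-0.134) and with the most variable probe set (-0.418), PKM with the most variable probe set (-0.382), and KRT8 with array weights (-0.218), and the cause was not tested. The number of arrays and probe sets near the lowest levels limit what could be called.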
